A study of Mus musculus with 24 samples.

Results

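The comparison described here sets diesel-exposed mouse lungs that received pirfenidone against diesel-exposed lungs that did not, across all conditioning settings of the study at once. It covers 18 of the 24 RNA sequencing libraries of the series, 9 with pirfenidone and 9 without, chosen by their treatment labels. All mice were male C57BL/6 at 20 weeks of age, and all 18 had breathed diesel exhaust for 30 min per day on 5 days per week over about 8 weeks. Without the drug, the groups were DE (exhaust alone), RIC+DE (remote ischemic conditioning before the exposure) and DE+RIC (conditioning during it). With the drug they were DE+PFD, RIC+DE+PFD and DE+PFD+RIC, each of 3 libraries like the others. The daily oral pirfenidone dose was 300 mg/kg, suspended in 0.5% carboxymethylcellulose and given 6 days a week, and conditioning meant 3 cycles of 5 min of blocked blood flow in the left leg on 3 days per week for 4 weeks. No group is labelled as given the carboxymethylcellulose without the drug, so every difference below covers the drug and its vehicle. The labels do not say that the 3 libraries of a group are 3 animals, so p-values measure the spread between these libraries.

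Pirfenidone is an oral antifibrotic drug used in idiopathic pulmonary fibrosis. In cell culture and animal models it lowers TGF-beta signalling, fibroblast proliferation and collagen synthesis, and it reduces inflammatory cytokines, although its direct molecular target is not settled. Fibrillar collagens, fibronectin and the smooth muscle actin of myofibroblasts are the usual transcript readouts of such an effect, and diesel exhaust acts on lung epithelium and macrophages through particles and aromatic hydrocarbons, which induce Cyp1a1 and antioxidant genes.

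The labels give each library a date whose meaning they do not state, and it is called the batch here. Of the libraries without pirfenidone, 3 are dated March, 5 October and 1 November, and of those with it 4 are dated March and 5 October. All 3 RIC+DE libraries are from March and all 3 DE libraries from October. Total counts ran from 3906807 to 14625860 with pirfenidone and from 5700391 to 18494156 without. Lung markers were abundant in every library, with Sftpc, the surfactant protein of alveolar type 2 cells, at 6910 to 68400 CPM (counts scaled to library size). RIC+DE+PFD 1 stood apart: its 100 most abundant genes took 39.6% of its counts, against 18.1 to 29.7% in the other 17. Its ribosomal protein transcripts exceeded the average of the 18 by 2.06 on the log2 scale. Results are therefore given with and without it where it matters. Libraries without the drug stood out too, in genes of other tissues. On the same scale, skeletal muscle genes exceeded the average by 5.35 in RIC+DE 1 and 4.43 in RIC+DE 3. Adipocyte genes exceeded it by 3.14 in DE 1 and 2.72 in RIC+DE 1. In these bulk samples, fewer cells of a type and less RNA per cell cannot be told apart.

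No gene passed the threshold for a pirfenidone effect shared by the 3 conditioning settings. In edgeR's quasi-likelihood test with terms for batch and conditioning, 0 of 17455 genes (0%) had an adjusted p under 0.05, and the smallest adjusted p was 0.959. At an unadjusted p under 0.05 stood 637 genes (3.65%), 204 of them higher with pirfenidone (1.17%) and 433 lower (2.48%). The log2 fold change was above 0 in 52.1% of all genes tested and below 0 in 47.9%. DESeq2 called 11 genes, of which 2 were among the 17455. EdgeR on unfiltered genes called 310, 254 of them lower, with 222 of the 310 among those tested here. The unfiltered call of smallest adjusted p, Krt4, was at 1812 CPM in RIC+DE 1 and at 1.75 or less in every other library. In the filtered fit its adjusted p was 0.959. The differences below are thus values with their errors, none of them past the threshold in the fit used here unless stated, and a missed threshold does not show that the groups were alike.

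The gene of smallest p among those higher with pirfenidone was Cxcl5 (ENSMUSG00000029371), a chemokine made by lung epithelium that recruits neutrophils. Without the drug it lay at 0.297 CPM at the lowest, 0.919 at the median and 2.81 at the highest of 9 libraries, and with the drug at 0.541, 3.79 and 21.6. The high values were all in 1 batch: the 4 March libraries with pirfenidone held 11.8 to 21.6 CPM and did not overlap with the 3 March libraries without it, at 0.895 to 2.81. In October the ranges overlapped, at 0.541 to 3.79 with the drug and 0.297 to 2.62 without. The fitted difference was log2 1.67 ± 0.42 (SE) over all 18 libraries (adjusted p = 0.959) and 0.81 ± 0.54 in the 10 October libraries alone. October holds no RIC+DE library, so its RIC+DE+PFD libraries carry no weight in the October fits given here and below. Those fits compare the drug only without conditioning and with conditioning during exposure, so they differ from the full fit in settings as well as in batch. Every March library without pirfenidone is RIC+DE, and 3 of the 4 with it come from other settings, so conditioning and the drug are only partly separated there.

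Cxcl1, another neutrophil chemokine, was also higher, by log2 0.76 ± 0.24, at 1.35 CPM at the median with pirfenidone and 0.962 without. Of the 28 inflammatory cytokine and chemokine genes tested, 21 were above 0, with a median of log2 0.17, and 2 had an unadjusted p under 0.05, both higher. Without RIC+DE+PFD 1, 15 of the 28 were above 0 and the median was 0.04, and in October it was -0.08. The classic cytokines showed no common direction: Il1b lay at log2 0.06 ± 0.28, Tnf at 0.24 ± 0.34, Il6 at -0.35 ± 0.50 and Ccl2, the monocyte chemokine, at 0.36 ± 0.35. Neutrophil marker genes had 9 of 16 members above 0 and a median of log2 0.03.

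**Figure D1:**
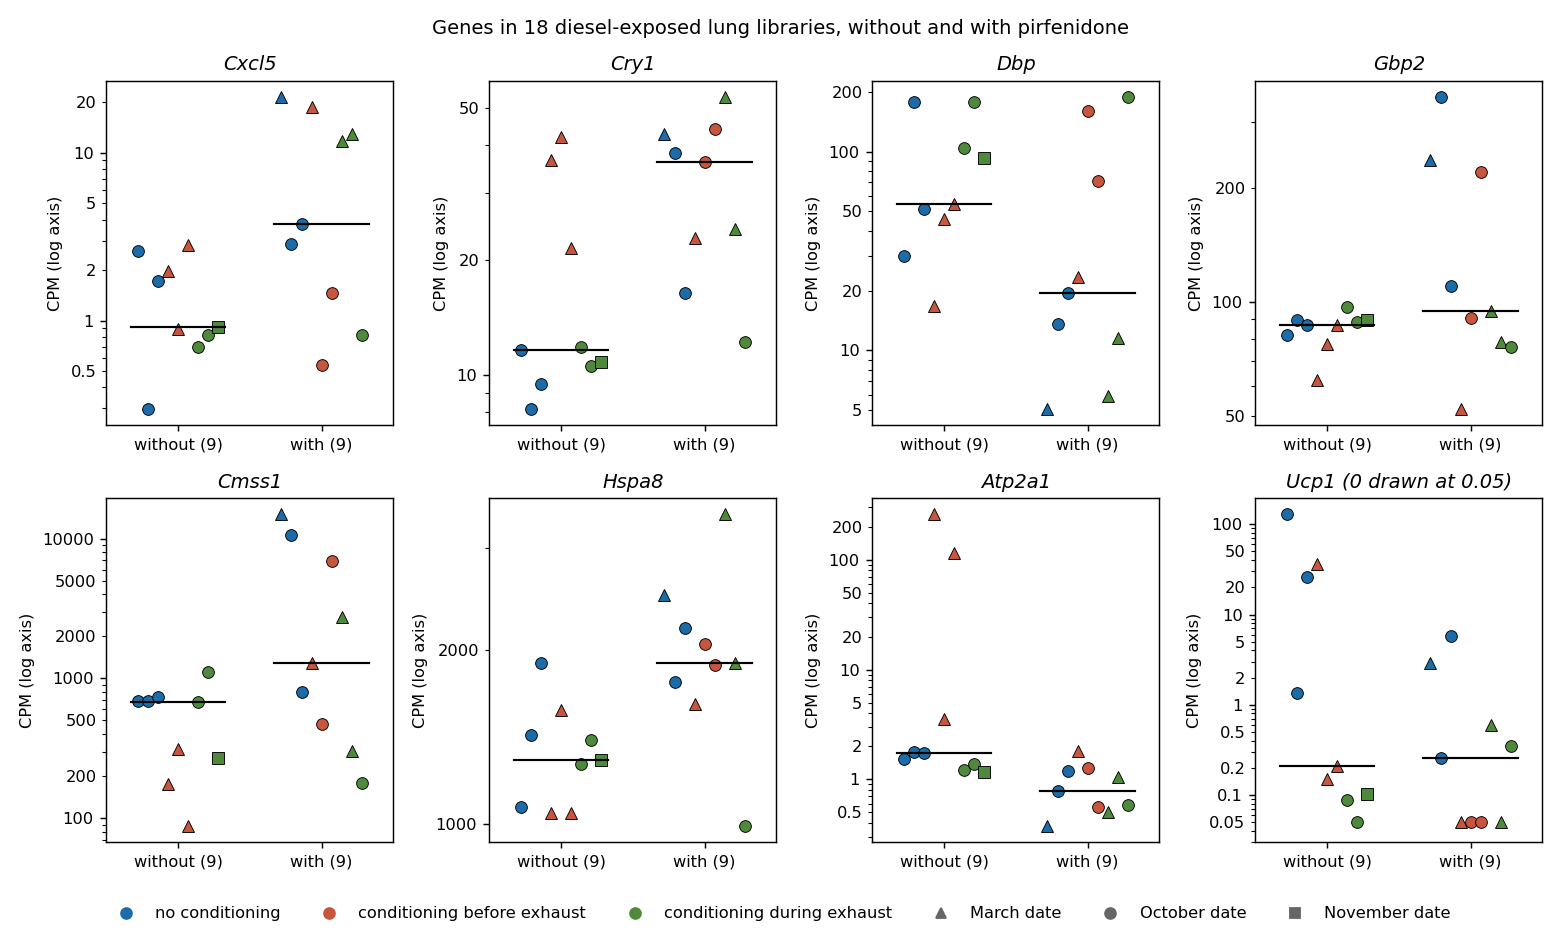
CPM of 8 genes in each of the 18 libraries on log axes, 9 without and 9 with pirfenidone, with colour for conditioning, symbol for batch date and a bar at the median of the 9. Cxcl5 is highest in the 4 March libraries with pirfenidone (11.8 to 21.6 CPM), Gbp2 and Cmss1 in a few libraries with it, and Atp2a1 and Ucp1 in a few libraries without it.

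Genes of the circadian clock lay on both sides of 0. Cry1, a repressor of the clock's core activators, was the third of the higher genes by p: its median was 36.2 CPM with pirfenidone (12.2 to 53.7) and 11.7 without (8.16 to 42.2), a difference of log2 0.96 ± 0.27. In October all 5 libraries with the drug, at 12.2 to 44.2 CPM, lay above the 5 without, at 8.16 to 11.8. In March the ranges overlapped, at 22.9 to 53.7 with and 21.5 to 42.2 without.

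Dbp, an output gene driven by the clock's activators, was lower, at a median of 19.4 CPM with pirfenidone and 54.6 without. Its spread over single libraries was wide in both pools, from 5.07 to 189 with and from 16.7 to 178 without, and the difference was log2 -1.18 ± 0.42. The nuclear receptors Nr1d1 and Nr1d2, repressors that peak near Dbp, lay at log2 -1.30 ± 0.65 and -0.91 ± 0.37. Npas2, an activator, lay at 0.64 ± 0.35. Of the 20 clock genes, 2 were higher and 2 lower at an unadjusted p under 0.05, and the list median was log2 -0.10, or 0.04 without RIC+DE+PFD 1 and 0.07 in October. Over the 18 libraries Cxcl5 correlated with Npas2 at r = 0.871, with Dbp at -0.87 and with Cry1 at 0.457. The sources used here give no hour of lung collection, and its part in these values, Cxcl5 included, was not tested.

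Fibrosis genes lay close to 0. Of 24 genes for fibrillar collagens and associated matrix, 23 were below 0, but their median was log2 -0.10, and none had an unadjusted p under 0.05. Without RIC+DE+PFD 1, 15 of the 24 were above 0 and the median was 0.03, and without RIC+DE 1 and RIC+DE 3 it was 0.16. Within settings the median was 0.14 without conditioning, -1.03 with conditioning before and 0.59 with conditioning during exposure. Col1a1, which encodes the alpha 1 chain of type I collagen, lay at a median of 235 CPM with pirfenidone (71.3 to 379.7) and 279.6 without (166 to 453). The lowest of these 18 values, 71.3, is RIC+DE+PFD 1, and the groups overlapped between 166 and 379.7 CPM. Its difference was log2 -0.23 ± 0.30 with that library and -0.05 ± 0.23 without it.

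The other matrix readouts also lay near 0. Col1a2 lay at log2 -0.06 ± 0.25, Col3a1 at -0.11 ± 0.24, Fn1 (fibronectin) at -0.06 ± 0.26 and Postn (periostin) at -0.02 ± 0.18. Acta2, the smooth muscle actin of myofibroblasts, lay at 0.02 ± 0.21, and the profibrotic growth factor Tgfb1 at -0.11 ± 0.14, with Ccn2, a matricellular gene induced by it, at -0.08 ± 0.18. In the matrix list the member of smallest p was Tnc, a matrix glycoprotein of wound repair, at log2 -0.60 ± 0.29.

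Elastic fibre and crosslinking genes had 11 of 24 members above 0 and a median of -0.01, with 1 higher and 3 lower at an unadjusted p under 0.05. The lower ones were Lox and Loxl2, which crosslink collagen and elastin, at log2 -0.44 ± 0.17 and -0.38 ± 0.18, and Fbn2, a fibrillin of growing tissue, at -1.06 ± 0.48. The higher one was Serpinh1, the collagen chaperone of the endoplasmic reticulum, at 0.42 ± 0.18. In the TGF-beta pathway 11 of 24 genes were above 0, with a median of -0.01, and the 1 gene of unadjusted p under 0.05 was Itgb8, an integrin subunit that activates latent TGF-beta, at -0.90 ± 0.31. Matrix proteases and inhibitors had 11 of 22 above 0 and a median of -0.01.

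**Figure D2:**
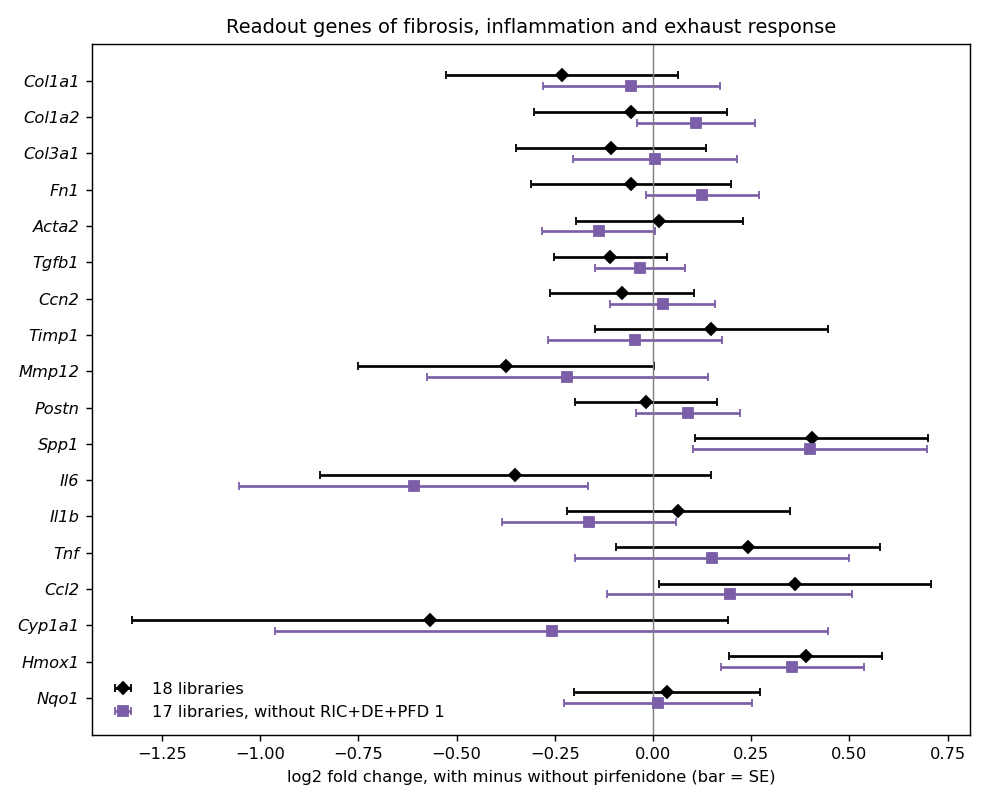
Log2 fold change with minus without pirfenidone of 18 readout genes (point, with SE as bar), in all 18 libraries and without RIC+DE+PFD 1. Col1a1 lies at -0.23 and -0.05, Fn1 at -0.06 and 0.13, and most bars cross 0 in both.

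Interferon-induced genes were mostly higher with pirfenidone, and 3 libraries held the highest values. Of the 31 tested, 25 were above 0, with a median of log2 0.21, against 52.1% of all genes. At an unadjusted p under 0.05 stood 8 (Ifit3, Irf1, Irgm1, Gbp2, Gbp3, Usp18, Bst2 and Zbp1), all higher, where 1.17% of all genes were higher at that level. Gbp2, a guanylate-binding protein of cell-autonomous defence against intracellular microbes, ranged from 62.3 to 97.1 CPM without pirfenidone. With the drug, 6 of 9 libraries lay at 52.1 to 110.1 CPM, while DE+PFD 1 had 237, DE+PFD 2 had 349 and RIC+DE+PFD 3 had 221. The difference was log2 0.71 ± 0.29 over all libraries.

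The same 3 libraries held the highest values of Irgm1, an immunity-related GTPase that directs such defence, at 99.9, 155 and 76.9 CPM, with 36.8 to 58.3 in the other 15 libraries. Irf1, a transcription factor of the interferon-gamma response, was highest in DE+PFD 2 and DE+PFD 1, at 298 and 231 CPM, with 96.7 to 199 in the other 16 libraries. Fitted without these 3 libraries, a choice made after their values were seen, the interferon list had 11 of 31 genes above 0 and a median of log2 -0.10. Within conditioning settings its median was 0.43 without conditioning, 0.11 with conditioning before and -0.05 with conditioning during exposure.

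A stretch of promoter from each of 4 of the 8 genes shows the letters that interferon-responsive factors are known to bind. Only promoters with a match were taken, so that all 4 hold one was set by the choice, and the rest of the 8 are not shown. The stretches come from RefSeq on GRCm38.p6, lie before the start site, and are written 5′ to 3′ along the gene's strand. Matches to TTTC, any 2 bases and TTTC, on either strand, are in capitals.
Gbp2 (chr3:142620574-142620643, + strand): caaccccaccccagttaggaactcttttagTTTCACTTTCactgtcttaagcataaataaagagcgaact
Gbp3 (chr3:142559969-142560043, + strand): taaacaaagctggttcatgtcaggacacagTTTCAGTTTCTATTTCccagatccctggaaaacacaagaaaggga
Irgm1 (chr11:48871421-48871480, - strand): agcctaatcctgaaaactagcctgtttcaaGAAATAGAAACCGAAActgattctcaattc
Ifit3 (chr19:34583343-34583446, + strand): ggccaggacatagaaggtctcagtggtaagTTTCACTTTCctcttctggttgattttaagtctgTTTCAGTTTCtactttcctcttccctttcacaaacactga
Gbp3 and Irgm1 each hold 2 matches that overlap. On either strand, from 250 bases before to 50 after the start, the motif was in 16 of 28 promoters of the interferon list (57.1%; 24 of its 34 genes matched the table) and in 3.44% of all 32851 promoters. It was in 2 of 10 promoters of the MHC class I list (20.0%; 9 of 11 genes matched). A match is a description of these letters and not a site.

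Genes of MHC class I presentation, which loads peptides from inside the cell, were all above 0, 11 of 11, with a median of log2 0.39. H2-D1 and H2-K1, the class I heavy chains, were the 2 with an unadjusted p under 0.05. H2-D1 had 1036 CPM at the lowest, 1528 at the median and 2041 at the highest of the 9 libraries without pirfenidone, and 1427, 1784 and 2875 with it. The ranges overlapped, and the difference was log2 0.39 ± 0.17. The immunoproteasome subunits Psmb9 and Psmb8 lay at 0.60 ± 0.30 and 0.53 ± 0.27. Without DE+PFD 1, DE+PFD 2 and RIC+DE+PFD 3 the list kept 6 of 11 genes above 0 and a median of 0.20, and in October alone 10 of 11 and 0.21. MHC class II genes had 9 of 11 above 0 and a median of 0.32, which was 0.03 in October.

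Of the 12 higher genes named by p, Cmss1, Lars2, Mir6236 and Gphn had the 4 largest fold changes, and their highest values were in the libraries that were also high in Gbp2. Cmss1 lay between 87.2 and 1114 CPM in the 9 libraries without pirfenidone. With it, DE+PFD 1 had 15020 CPM, DE+PFD 2 had 10570, RIC+DE+PFD 3 had 6870 and DE+PFD+RIC 1 had 2733, and the other 5 had 179 to 1289. The fitted difference was log2 2.87 ± 0.85, and 0.92 without the 3 libraries named first. Gphn, which encodes a scaffold of inhibitory synapses, lay at log2 2.60 ± 0.76, Lars2, the mitochondrial leucyl-tRNA synthetase, at 2.80 ± 0.83, and Mir6236, annotated as a microRNA gene, at 2.79 ± 0.85.

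Gphn was highest in the same order of libraries, at 4523, 2594, 2157 and 860.0 CPM, with 61.0 to 414 in the other 14. Within settings all 4 genes were higher without conditioning and with conditioning before exposure, and below 0 with conditioning during it, with Cmss1 at log2 3.11, 4.92 and -0.78. Over the 18 libraries Cmss1 correlated with Mir6236 at r = 0.992, with Gphn at 0.991 and with Lars2 at 0.99. Il31ra, Camk1d and Cdk8 followed it too, at 0.976, 0.972 and 0.961. The 4 fold changes are therefore 1 shared pattern over the libraries and not separate results. The sources used here do not state how multiply mapped reads were counted, which makes the counts of these genes uncertain.

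Chaperone genes were higher with pirfenidone over all libraries and not in the October libraries alone. All 19 heat shock chaperone genes were above 0, with a median of log2 0.46, and 3 had an unadjusted p under 0.05. Hspa8, the constitutive Hsp70 chaperone, lay at 1043 CPM at the lowest, 1289 at the median and 1895 at the highest without the drug and at 988, 1897 and 3437 with it. In March all 4 libraries with the drug, at 1608 to 3437 CPM, lay above the 3 without, at 1043 to 1571, and in October the ranges overlapped, at 988 to 2179 and 1068 to 1895. The difference was log2 0.57 ± 0.21 over 18 libraries and 0.14 in October.

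Hspb1, a small heat shock protein, lay at log2 0.88 ± 0.36 and Ahsa1, an activator of Hsp90, at 0.53 ± 0.21. The summed level of the 19 genes ran from 3877 to 14560 CPM with the drug and from 4031 to 7965 without, and the 14560 was DE+PFD+RIC 1. In the October libraries the list median was -0.01, with 9 of 19 genes above 0, and it was 0.51 without RIC+DE+PFD 1. The unfolded protein response list, for stress of the endoplasmic reticulum, had 23 of 24 above 0 and a median of 0.21, and in October 9 of 24 and -0.04.

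Genes that respond to exhaust or metabolize drugs had list medians of log2 0.20 or less. NRF2 and antioxidant genes had 24 of 26 members above 0 and a median of log2 0.20, but 6 of 26 and -0.14 in October. Gsta3, a glutathione transferase, lay at 0.52 ± 0.20, Srxn1, which repairs peroxiredoxins, at 0.36 ± 0.16, Hmox1, heme oxygenase, at 0.39 ± 0.20, and Nqo1, a quinone reductase, at 0.04 ± 0.24. Cyp1a1, which aromatic hydrocarbons induce, was between 1.16 and 10.4 CPM in 16 of the 18 libraries, and was 289.8 in DE+PFD 1 and 135 in RIC+DE 3, a fitted difference of -0.57 ± 0.76. Cyp1a2, the main enzyme that clears pirfenidone, was at 0 in 17 of the 18 libraries and was not tested. The 28 drug metabolism genes had a median of 0.07, with 20 above 0.

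Several of the lower genes are known from skeletal muscle, fat, nerve or lymphoid tissue and were high in a few libraries without pirfenidone. Of 16 skeletal muscle genes, 10 passed the filter on low counts, and all 10 were below 0 and had an unadjusted p under 0.05, with a median of log2 -1.86. Atp2a1 (log2 -3.79 ± 0.86), the calcium pump of fast muscle and the gene of smallest p in the test, was at 261 CPM in RIC+DE 1 and 114.5 in RIC+DE 3, and between 0.373 and 3.58 in the other 16 libraries. Mylpf, a myosin light chain of fast muscle, was at 95.9 and 68.3 CPM in those libraries and between 1.94 and 5.80 elsewhere. Fitted without RIC+DE 1 and RIC+DE 3, a choice made after their values were seen, the list had a median of -0.18 with 4 of 10 genes above 0. Sim2, a transcription factor, had the same libraries as its highest, at 18.2 and 5.51 CPM.

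Adipocyte genes had 14 of 14 members below 0 and a median of log2 -0.88. Their summed level was 4304 CPM in DE 1, 3059 in RIC+DE 1 and 244 to 1528 in the other 16 libraries. Ucp1, the uncoupling protein of brown fat, was at 131 CPM in DE 1, 35.9 in RIC+DE 1 and 26.1 in DE 3, and at 5.74 or less elsewhere. Without DE 1 the list median was -0.41, and without RIC+DE 1 and RIC+DE 3 it was -0.15. The nerve list had 9 of 11 below 0 and a median of -0.80. Without DE 1 that median was -0.52, and in October it was -0.13. Without RIC+DE 1 and RIC+DE 3 it was -0.0003, with 5 of 11 genes above 0.

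B cell, T cell and lymphoid tissue genes were mostly below 0, while genes of NK and cytotoxic cells had 10 of 14 above 0 and a median of log2 0.10. All 15 B cell genes were below 0 (median log2 -0.50), as were 18 of 21 T cell genes (-0.19) and 10 of 11 genes of lymphoid tissue macrophages and stroma (-1.07). Within settings the B cell median was -1.06 without conditioning, -0.28 with conditioning before and 0.07 with conditioning during exposure. In the same order the T cell medians were -0.77, 0.29 and -0.13, and those of lymphoid tissue -2.33, -0.004 and -0.05. These pooled values thus lay mainly in the setting without conditioning. The summed B cell level was 2637 CPM in DE 1, 377 to 897 in the other 8 libraries without the drug and 239 to 772 with it. Pax5, the identity factor of B cells, was at 87.4 CPM in DE 1, 16.6 to 36.5 in the other 8 without and 5.48 to 39.0 with it, a difference of -0.67 ± 0.29. Bank1, a B cell scaffold, lay at -0.69 ± 0.23 and Foxp3, the factor of regulatory T cells, at -1.23 ± 0.47.

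Ebf1, a factor of B cells that stromal cells also use, was the third of the lower genes by p, at -0.69 ± 0.19. Its median was 25.4 CPM with pirfenidone (11.9 to 39.0) and 36.9 without (23.2 to 89.1), and the highest value was DE 1. Stab2, a scavenger receptor of sinusoidal endothelium, had 24.1 CPM in DE 1, 9.18 in DE 3 and 1.80 to 3.30 in the other 7 libraries without, and 1.13 to 2.92 with, a difference of -1.27 ± 0.38. Without DE 1 the medians were -0.24 for B cells, with 2 of 15 genes above 0, -0.04 for T cells and -0.41 for lymphoid tissue genes. The part of these tissue genes in the other lower values was not tested.

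**Figure D3:**
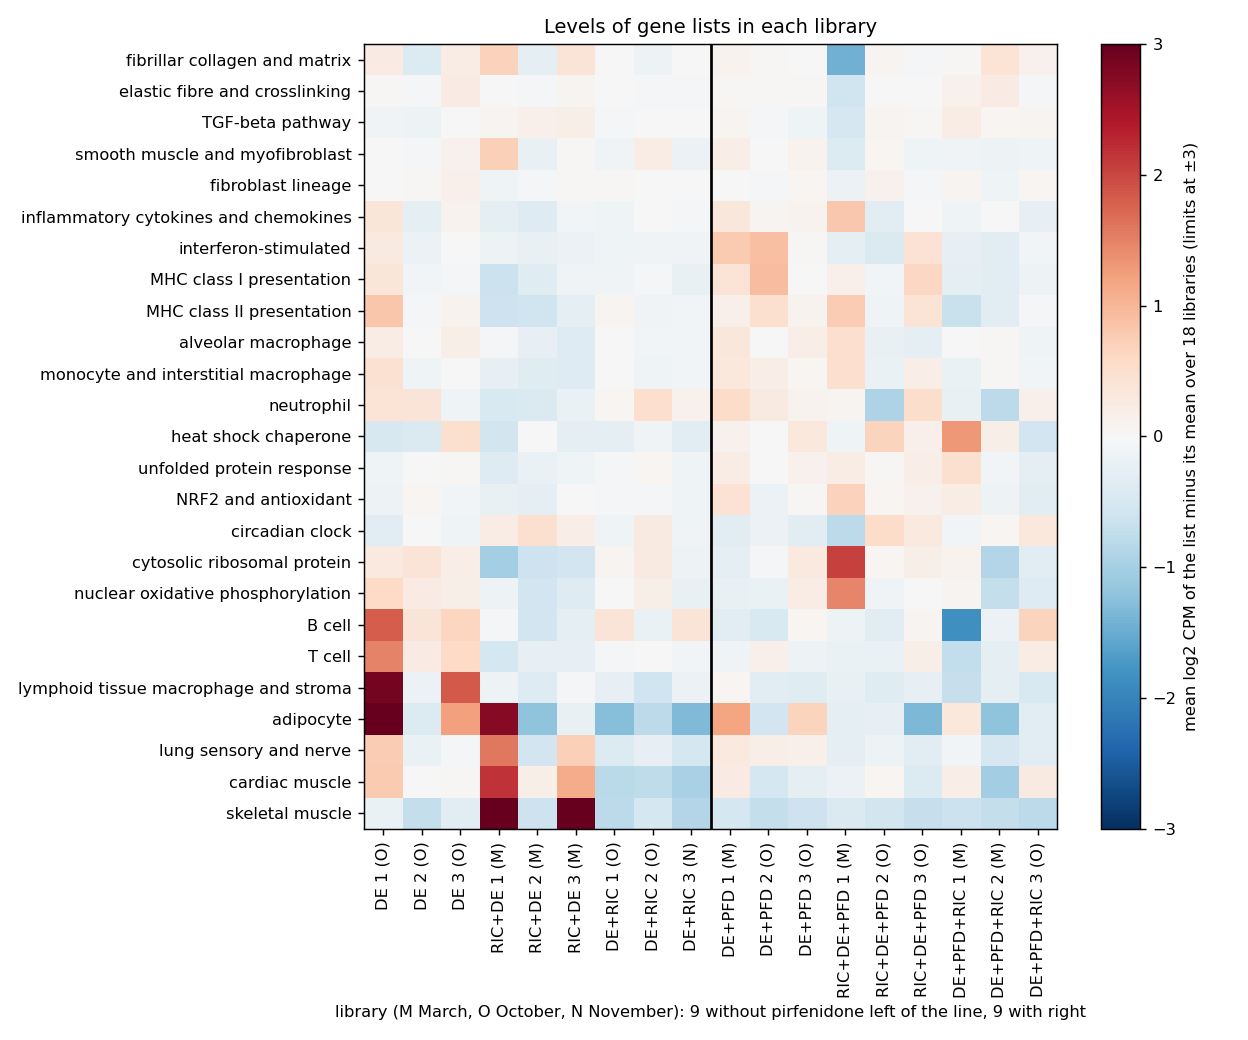
Mean log2 CPM of 25 gene lists in each library, less the list's mean over the 18 (colour, limits at ±3), with the 9 libraries without pirfenidone left of the line and the 9 with it right. Skeletal muscle stands out in RIC+DE 1 and 3, lymphoid and adipocyte genes in DE 1, ribosomal protein genes in RIC+DE+PFD 1, and interferon genes in DE+PFD 1, DE+PFD 2 and RIC+DE+PFD 3.

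In Klhl25 and Ripk4, the range over the libraries was narrow. Klhl25, an adaptor of a ubiquitin ligase, was at 24.2 to 41.8 CPM with pirfenidone (median 32.1) and 21.2 to 27.9 without (25.4), a difference of log2 0.37 ± 0.11. With the drug, 7 of 9 libraries lay above the highest without. Ripk4, a kinase of epithelial differentiation, lay at 24.7 to 36.7 CPM (median 31.7) with and 19.1 to 28.8 (26.4) without, at 0.34 ± 0.10.

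Dhh, a hedgehog ligand of Schwann cells, was at 1.94 CPM at the median with and 1.28 without, at 1.04 ± 0.27, and Rad51c, of homologous recombination, at 0.58 ± 0.18. Hs3st6, a heparan sulfate sulfotransferase, lay at 0.78 ± 0.24 and was at 19.3 CPM in RIC+DE+PFD 1 against 7.89 or less elsewhere. Among the lower genes, Esr2, the estrogen receptor beta, lay at -0.68 ± 0.20 over all settings. Its ranges overlapped, at 1.56 to 5.32 CPM with pirfenidone and 2.83 to 6.46 without. In the setting without conditioning Esr2 was at 1.56 to 1.73 CPM in the 3 DE+PFD libraries and 2.83 to 4.60 in DE. Esr2 was picked on these same libraries, and the share of all genes that separate there was not counted. Inpp4b, a phosphatase of inositol lipids, lay at -0.50 ± 0.14 and Mbtd1, a chromatin reader, at -0.56 ± 0.16. Ano5, a membrane protein of muscle, lay at -0.95 ± 0.27, Carns1, which makes carnosine, at -0.72 ± 0.21. Csmd1, a complement regulator, lay at -1.19 ± 0.36, with 35.0 CPM in DE 1, 14.2 in DE 3 and 1.92 to 5.64 in the other 16 libraries.

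In all 24 named genes the fold change kept its sign without conditioning, with conditioning before exposure, in the 10 October libraries alone and without RIC+DE+PFD 1. With conditioning during exposure 8 of the 12 higher and 10 of the 12 lower genes kept it. These genes were chosen on the same libraries, so the counts describe them and support nothing further.

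**Figure D4:**
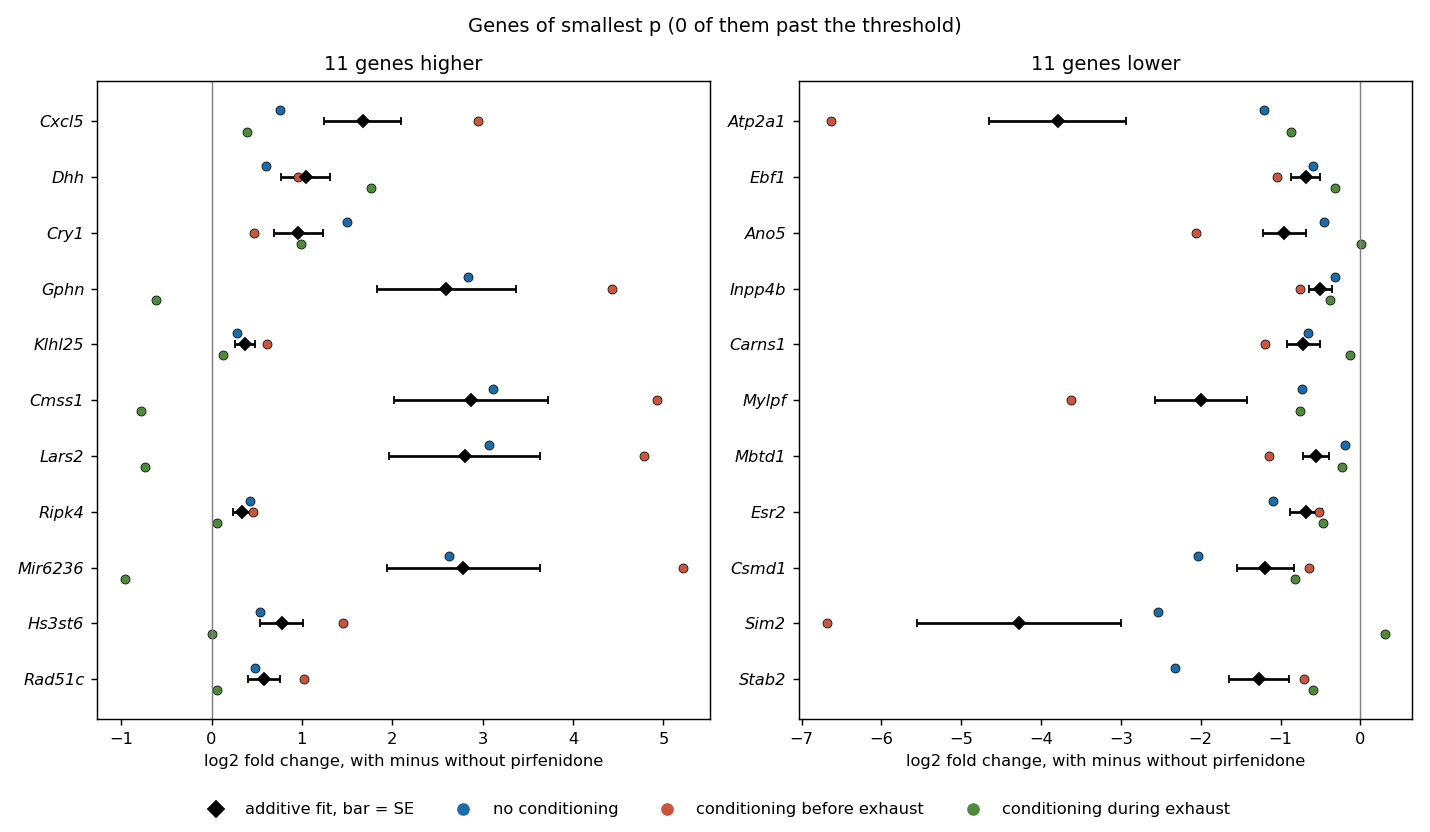
Log2 fold change with minus without pirfenidone of 11 of the 12 higher and 11 of the 12 lower genes of smallest p, over all settings (diamond, SE as bar) and within each conditioning setting (circles). Cxcl5 lies at 0.76, 2.95 and 0.39 in the 3 settings, and Cmss1 at 3.11, 4.92 and -0.78.

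Calls in the test of whether the pirfenidone difference varied with conditioning depended on single libraries. The test of pirfenidone by conditioning called 1108 genes (6.35%), and 5180 (29.7%) had an unadjusted p under 0.05. Without RIC+DE+PFD 1 it called 0, with 613 genes at an unadjusted p under 0.05. It also called 0 without each of DE 1, DE 3, DE+PFD 2, RIC+DE 1, RIC+DE 3, DE+RIC 1, DE+RIC 2 and DE+PFD+RIC 1. In those fits, however, 4158 to 5246 genes had an unadjusted p under 0.05. The test called 2 without DE 2 and 7 without RIC+DE 2. It called 3576 without DE+PFD 1, 2054 without RIC+DE+PFD 2 and 1842 without DE+PFD 3. The genes of smallest p were Bola1, of iron-sulfur cluster assembly, Wfdc1 and Cstb, inhibitors of proteases, Ccl21a, a lymphoid chemokine, and Rbp4, a retinol carrier, each at an adjusted p of 0.0445.

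Bola1 was at 74.4 CPM in RIC+DE+PFD 1 and between 10.2 and 28.6 in the other 17 libraries. Its difference was log2 -0.39 without conditioning, 2.06 with conditioning before and -1.37 with conditioning during exposure. Cstb was at 212 CPM in that library and between 28.8 and 77.3 in the others, and Rbp4 at 99.5 against 18.9 to 36.5. Both had RIC+DE+PFD 1 as the highest value of the 18.

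Within the settings, conditioning before exposure held every call. Pirfenidone against none called 2841 genes higher (16.3%) and 1150 lower (6.59%) there, 0 without conditioning (0%) and 0 with conditioning during exposure (0%). At an unadjusted p under 0.05 stood 7086 genes (40.6%) with conditioning before exposure, 538 (3.08%) without conditioning and 1661 (9.52%) with conditioning during exposure. Without RIC+DE+PFD 1 the 3991 calls became 0, and 968 genes had an unadjusted p under 0.05. Without RIC+DE 1 the calls also became 0, but 5660 genes had an unadjusted p under 0.05. Without RIC+DE 2 or RIC+DE 3 the calls became 2530 or 2429, and without DE+PFD 1 they became 6183. RIC+DE+PFD 1 is the only March library of its group, and the 3 libraries it is set against are all from March, so the comparison inside that batch rests on it.

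The genes called there include all 39 cytosolic ribosomal protein genes tested, at a median of log2 2.06. The summed level of the list was 101700 CPM in RIC+DE+PFD 1, 13320 to 29870 in the other 8 libraries with pirfenidone and 12130 to 31590 in the 9 without. Over all settings the median was 0.40 with 39 of 39 above 0, and without that library 0.02 with 24 of 39. It was -0.42 without conditioning and -0.88 with conditioning during exposure. Nuclear genes of oxidative phosphorylation had a median of 0.13 over 18 libraries and -0.17 without that one. Reads from the many near-identical copies of ribosomal protein genes may be split by the counting, so these counts are uncertain.

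**Figure D5:**
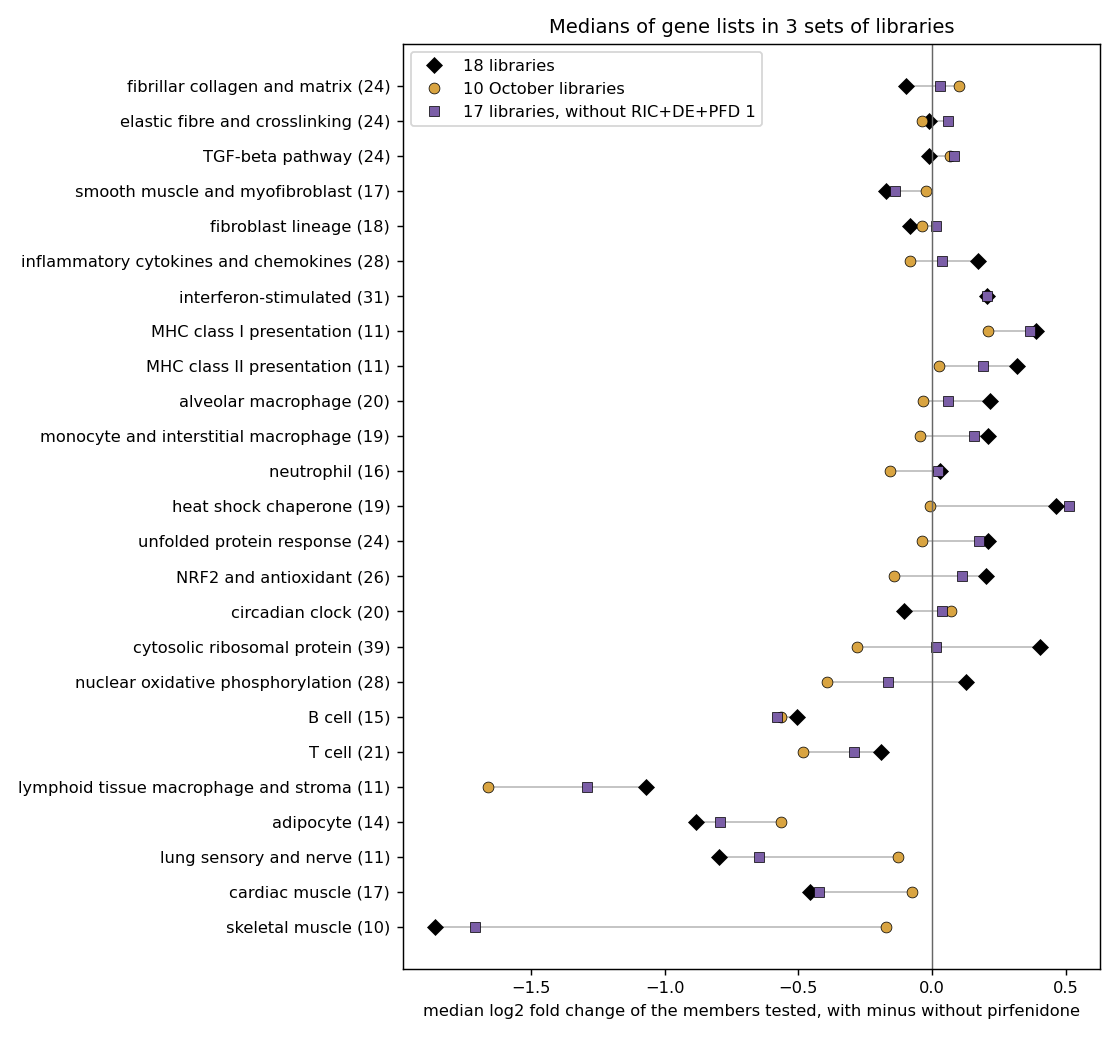
Median log2 fold change with minus without pirfenidone of 25 gene lists (number of genes tested in brackets), in all 18 libraries, in the 10 October libraries and without RIC+DE+PFD 1. The October fit holds no comparison with conditioning before exposure. The heat shock median is 0.46, -0.01 and 0.51, that of ribosomal proteins 0.40, -0.28 and 0.02, and that of B cells -0.50, -0.57 and -0.58.

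Lists for epithelial cells of the lung had medians above 0 over all libraries, and nearer 0 in October and without RIC+DE+PFD 1. Surfactant and alveolar type 2 genes had 16 of 20 above 0 and a median of log2 0.11, and alveolar type 1 genes 12 of 14 and 0.09. Transitional epithelium genes, of injured alveoli, had 11 of 15 and 0.28, with Sfn, a cell cycle adaptor of epithelium, at 0.59 ± 0.24 and Krt8, a keratin, at 0.40 ± 0.18. Club and secretory genes had 15 of 20 and 0.19, and ciliated genes 12 of 18 and 0.16. In October these medians were 0.03, -0.03, 0.04, -0.07 and 0.03, and without RIC+DE+PFD 1 they were 0.09, 0.08, 0.11, 0.03 and 0.05. The summed club and secretory level was 199400 CPM in RIC+DE+PFD 1 and at most 76200 in the other libraries. Blood vessel endothelium had 12 of 19 above 0 and a median of 0.0049, and the fibroblast lineage 8 of 18 and -0.08.

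Alveolar macrophage genes had 14 of 20 above 0 and a median of 0.22, and those of monocytes and interstitial macrophages 14 of 19 and 0.21, against -0.03 and -0.05 in October. Without RIC+DE+PFD 1 these medians were 0.06 and 0.155. Fcgr1, an activating antibody receptor, lay at 0.63 ± 0.26, Cd14, a receptor for bacterial lipopolysaccharide, at 0.46 ± 0.19 and Trem2, a lipid receptor, at 0.59 ± 0.27. Plet1, a surface protein of alveolar macrophages, lay at 0.35 ± 0.17. Proliferation genes had 12 of 28 above 0 with a median of -0.03, and p53 targets 9 of 20 with -0.01.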

How the data were processed

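RNA sequencing was done on mouse lung. The authors deposited raw gene counts for 78275 genes in 24 libraries, and per the submitters' processing notes these came from FastQC 0.12.1, fastp 0.23.4, STAR 2.7.11b and featureCounts on GRCm39. The sources used here state no annotation release, strand setting or rule for multiply mapped reads. Symbols came from GENCODE on GRCm38 by gene identifier and covered 51486 genes, which hold 98.45% of the counts.

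The 18 diesel libraries were fitted with edgeR 4.0.16 (R 4.3.3; TMM scaling, filter by expression, quasi-likelihood test, Benjamini-Hochberg adjustment, threshold 0.05) with terms for batch, conditioning and pirfenidone, which left 12 residual degrees of freedom. A second fit with 6 group means and batch gave the differences within settings and the test of pirfenidone by conditioning. The November library DE+RIC 3 is alone in its batch and so has no weight in the pirfenidone difference. CPM values are counts scaled to the TMM-adjusted library size, and an SE is the log2 fold change over the square root of its F statistic. Alternatives used limma 3.58.1 and DESeq2 1.42.0, and the tests were tried on simulated counts.

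Named genes were the 12 higher and 12 lower of smallest p with a mean of at least 1 CPM and a symbol, 5 from the conditioning test, the readout genes, and up to 4 members of smallest p from each list. Nr1d1, Npas2, Gbp3, Usp18, Bst2 and Zbp1 were named after their values were seen. The comparison, the lists and these rules were chosen with earlier results of these data known. Total counts ran from 3906807 to 18494156 per library, and the lowest total limits the precision of genes of low CPM. Some genes of these rules and lists are counted but not reported here by name.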

Additional observations from a re-analysis of the deposited data

Results flagged for a closer look

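A sample far from the other 8 of its pool, by Dixon's ratio of gap to range above its 95% critical value for 9 samples, was found in 26 of 158 tests (16.5%). The tests share libraries, each pool mixes settings and dates, and some genes were picked on these values. No rate expected by chance can therefore be set beside this share. RIC+DE+PFD 1 accounted for 12. It was lowest of the 9 libraries with pirfenidone in fibrillar collagen and matrix genes (0.742), blood vessel endothelium (0.708), elastic fibre genes (0.669), the TGF-beta pathway (0.519) and the gene Mbtd1 (0.594). It was highest in cytosolic ribosomal protein (0.6) and oxidative phosphorylation genes (0.571) and in Cstb (0.649), Rbp4 (0.632), Bola1 (0.579), Mylpf (0.565) and Hs3st6 (0.562).

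DE 1 accounted for 6, as the highest of the 9 libraries without pirfenidone in plasma cell (0.747), interferon-stimulated (0.569), monocyte and interstitial macrophage (0.531), MHC class II (0.5) and proliferation genes (0.496) and in Ebf1 (0.525). In the same pool DE 3 was highest in elastic fibre genes (0.569) and RIC+DE 1 in smooth muscle genes (0.514), and RIC+DE 2 was lowest in club and secretory (0.539) and transitional epithelium genes (0.502). With pirfenidone, DE+PFD 1 was highest in aryl hydrocarbon receptor genes (0.777), DE+PFD+RIC 1 lowest in dendritic cell (0.767) and B cell genes (0.552), and RIC+DE+PFD 3 lowest in cholesterol genes (0.523).

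For a pirfenidone difference that varies between conditioning settings, edgeR's interaction test called 1108 genes, among them Bola1, Wfdc1, Cstb, Ccl21a and Rbp4, each at an adjusted p of 0.0445. Without RIC+DE+PFD 1 the test called 0 genes.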

How the results depend on the processing

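The pirfenidone difference over all settings called 0 genes in edgeR, 11 with DESeq2 (6 higher), 310 without a filter (56 higher), and 7869 (3782 higher) in the 7 March libraries alone, a setting added after seeing the data, in which the only conditioning setting with both arms is RIC+DE+PFD 1 against 3 RIC+DE libraries. With no conditioning term March gave 0. Leaving out each library gave 0 to 1. With the replicate number as a block it called 0 with or without the batch term.

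The test by conditioning called 3114 genes with DESeq2, 3407 without a filter, 1734 without DE+PFD 1, DE+PFD 2 and RIC+DE+PFD 3, and 0 without a batch term, with either replicate block, without RIC+DE+PFD 1 and DE 1 together, without RIC+DE 1 and RIC+DE 3 together, with limma's quality weights and with each library's correlation of expression with gene length as a covariate. Leaving out each library gave 0 to 3576.

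With conditioning before exposure, 2102 genes were called with the replicate block and batch, and 0 without RIC+DE+PFD 1 and DE 1, without RIC+DE 1 and RIC+DE 3, with quality weights and with the length covariate (0 to 6183 leaving out each library). Without conditioning, DESeq2 called 40 and no filter 172 (0 to 10). With conditioning during exposure these were 19 and 107, the October libraries alone gave 1 and quality weights 2 (0 to 1). Ccl21a, at log2 -0.12 over 18 libraries, was 1.98 in March alone, on that same lone library. Over up to 35 settings (33 for Sim2, 34 for Il6), 24 of 48 genes (24 of smallest p, 5 from the test by conditioning, 19 readouts) and 12 of 50 lists never changed sign. List members were not run singly. The cause of these differences was not tested.

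The labels number the libraries of a group and state no pairing between groups. Same-numbered libraries did not deviate together (r from -0.176 to 0.0899 over 9 pairs, 0 above 0.1, and 1 library pair best with its own number). These deviations from group means also carry the batch date, so they do not settle whether libraries were paired. October holds no RIC+DE library, so that setting gave no value for conditioning before exposure or for the test by conditioning. Totals from 3906807 counts limit genes of low abundance.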

Other observations

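Genes of stratified squamous epithelium were abundant in 1 library without pirfenidone. Krt4 and Krt13, a pair of keratins of the oesophageal and oral lining, were at 1812 and 2017 CPM in RIC+DE 1 and at 1.75 and 1.48 or less in the other 17 libraries. Lor, which encodes loricrin of the cornified envelope, was at 385 CPM in RIC+DE 1 and at 0.866 or less elsewhere. Skeletal muscle genes beyond those tested were high in the same library and in RIC+DE 3. Myh8, the perinatal myosin heavy chain, was at 810 and 384 CPM there and at 0.26 or less elsewhere, Myh1, of fast fibres, at 481 and 188 CPM and 0.497 or less, and Acta1, skeletal actin, at 770.2 and 447 CPM and 3.12 or less. These genes were picked after their values were seen, and their part in the pirfenidone differences was not tested.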
